A study of Mus musculus with 10 samples.

Results

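The Myc and Max network was followed in mouse embryonic stem (ES) cells in which the lysine acetyltransferase Kat2a was inhibited. Its 10 genes were taken from a fixed list (Myc, Mycn, Mycl, Max, Mxd1, Mxd3, Mxd4, Mxi1, Mnt and Mga) and found by symbol, through their Ensembl identifiers, among the 30677 genes of the RNA-seq count table. All 10 had enough counts to be tested, as had 20027 genes in all. The list was drawn up by gene family, with earlier results of these data known.

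The cells were TNGA, a mouse ES cell line that expresses green fluorescent protein from a single allele of the Nanog locus, grown in serum and leukemia inhibitory factor (LIF). They received either 100 μM of MB-3, a small molecule inhibitor of Kat2a (also called Gcn5), or its vehicle dimethyl sulfoxide (DMSO), for 48 hours, and every culture held DMSO at 0.1% of its volume. RNA-seq was made from 3 cultures per treatment, lettered A, B and C, and acetylation of histone H3 at lysine 9 (H3K9ac, the mark that Kat2a deposits) was mapped by ChIP-seq, for which each treatment has a single peak list. The RNA libraries held 46863700 to 51137896 counts with DMSO and 42270312 to 49334434 with MB-3. The cells are 1 line and the labels do not say whether cultures or libraries were made on separate days, so the p-values measure the spread between these libraries.

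The proteins of this network bind DNA in pairs. Myc, Mycn and Mycl pair with Max on the E-box CACGTG and recruit coactivators, among them the Kat2a-containing SAGA complex and its scaffold Trrap, while Mxd1, Mxd3, Mxd4, Mxi1 and Mnt pair with Max on the same letters and bring in Sin3 corepressors with their histone deacetylases. Mga, a very large protein that also pairs with Max, is the scaffold of a Polycomb complex, PRC1.6, that keeps germline genes silent in ES cells, and Myc proteins are known in ES cells for their support of self-renewal and growth below LIF.

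The E-box is the sequence these proteins share, so it was searched in the promoters of the network genes themselves. Promoter windows from RefSeq (GRCm38.p6, 250 bases before and 50 after the annotated start) were matched for 9 of the 10 members, all but Myc, and CACGTG, which reads the same on both strands, was found in 3 of the 9. It was found in 7.2% of all 32851 windows and, counted by gene, in 8.1% of genes. These stretches are shown with the E-box in capitals, 5′ to 3′ on the strand of the gene, and positions are counted from the RefSeq start as 0. In Max the E-box covers the start itself, from -3 to 2, in Mnt it lies from -123 to -118, and in Mxd4 from -219 to -214.
Max, chr12:76962221-76962276, minus strand: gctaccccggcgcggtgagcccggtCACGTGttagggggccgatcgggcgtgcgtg
Mnt, chr11:74830776-74830831, plus strand: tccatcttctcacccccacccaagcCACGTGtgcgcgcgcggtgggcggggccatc
Mxd4, chr5:34187899-34187954, minus strand: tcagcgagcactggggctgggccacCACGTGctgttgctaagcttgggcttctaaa

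Mycn is the member on which the RNA results turn, and its promoter is shown for that reason. Its window holds no CACGTG. After it had been read, the letters TTTGGCGC, a form of the site that E2F factors bind, were searched on both strands (reverse complement GCGCCAAA): they stand there at 2 places, with first bases at -183 and -168, in capitals below. Of all windows 0.51% held these letters at least once and 2 windows (0.01%) held them 2 or more times. Of the 9 network genes with a window Mycn alone had them. The letters were chosen with the Mycn window in view, so their presence there was known beforehand and these shares test nothing. Looser forms of the site were not counted. The 172 bases shown lie wholly before the first base of the gene in both annotations. A match of letters does not show that a factor was bound in these cells.
Mycn, chr12:12941915-12942086, minus strand: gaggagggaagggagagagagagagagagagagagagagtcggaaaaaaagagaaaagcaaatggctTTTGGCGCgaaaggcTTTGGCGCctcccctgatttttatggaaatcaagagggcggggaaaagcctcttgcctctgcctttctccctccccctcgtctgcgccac

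The 10 genes differed widely in level. To order them, counts scaled to library size were divided by the summed exon length of each gene in kilobases, which gives RPKM. Mycn stood first, at 48.4 ± 2.53 RPKM with DMSO (SD, n = 3), above 92.1% of the tested genes. Mga followed at 21.4 ± 3.36 RPKM and Max at 21.03 ± 1.47 RPKM, and these neighbours overlapped library by library. Myc was at 15.6 ± 2.03 RPKM and Mnt at 13.4 ± 0.600 RPKM, with the lowest Myc library above the highest Mnt library.

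The remaining members were less abundant. Mycl stood at 5.47 ± 0.813 RPKM, Mxi1 at 3.60 ± 0.190 RPKM and Mxd3 at 2.50 ± 0.377 RPKM with DMSO. Mxd1 was lower still at 1.16 ± 0.0483 RPKM, and Mxd4, at 0.399 ± 0.0329 RPKM, stood above only 17.4% of the tested genes. The order of the means with MB-3 was the same.

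**Figure D1:**
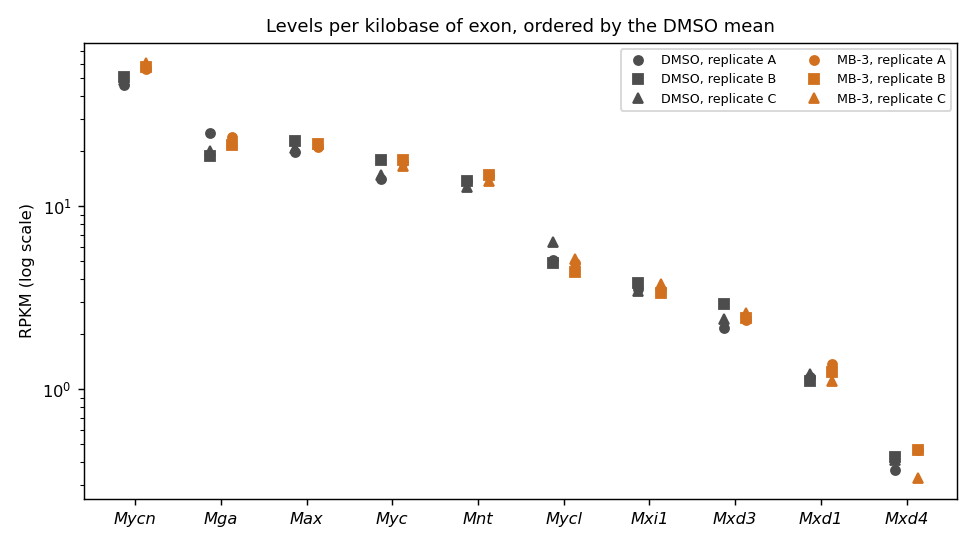
Levels of the 10 network genes in RPKM (log scale) in each of 3 DMSO and 3 MB-3 libraries, ordered by the DMSO mean. Mycn lies highest in both treatments, Mga and Max overlap, and Mxd4 lies lowest.

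Did inhibition of Kat2a move the network? By the comparison of treatments alone (edgeR quasi-likelihood test, Benjamini-Hochberg adjustment over all tested genes, threshold 0.05) none of the 10 members passed, where 41 genes, 0.205% of those tested, did so. At an unadjusted p under 0.05 the same test gave 1 member of 10, Mycn, and 10.9% of all tested genes. DESeq2 called 1 member, again Mycn, and 1.04% of genes, and limma-voom called 0 members and 0.0899% of genes. When the replicate letter was added as a block, which takes out differences shared by the libraries of a letter, 1 member passed, higher with MB-3: Mycn. In that fit 3.22% of tested genes were called higher and 3.9% lower. The letters did not meet the criterion for pairs (a correlation over 0.1 between the libraries of every letter), so the blocked values are given beside the others and not in their place.

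Mycn was therefore the member with the clearest difference. It is the Myc gene best known from the early embryo and neural progenitors, and lies on chromosome 12 from 12936093 to 12941914, minus strand (GRCm38). It reached 150.4, 167 and 161 CPM (counts scaled to the normalized library size) in DMSO cultures A, B and C, and 185, 189.8 and 198 CPM in MB-3 cultures A, B and C. Every MB-3 library lay above every DMSO library. The means were 159 ± 8.33 and 191 ± 6.92 CPM (SD, n = 3 each), and the difference was larger than the spread within either treatment.

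On the log2 scale Mycn was higher by 0.26 (SE 0.0582), a fold of 1.20, and its adjusted p of 0.0999 (edgeR, Benjamini-Hochberg; unadjusted p 0.000607) missed the threshold. With the replicate letter as block the log2 fold change was 0.26 (SE 0.0437) and the adjusted p 0.000126 by the same test, and in DESeq2 without the block the adjusted p was 0.00631. Within each letter the MB-3 library was the higher of the 2, by 0.30, 0.19 and 0.30 on the log2 scale for A, B and C. The call rested on the fit: of 18 alternative fits 7 called Mycn, and its log2 fold change lay between 0.22 and 0.30 in all 18. Without DMSO culture B the adjusted p was 0.0175 (edgeR, Benjamini-Hochberg), and without any other single library it stayed above the threshold. In bulk RNA, more cells of a type and more RNA per cell cannot be told apart.

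Myc, the gene first found in this family and a direct LIF target in ES cells, lies on chromosome 15 from 61985391 to 61990374, plus strand. Its levels were 38.4, 48.8 and 40.3 CPM with DMSO and 47.6, 48.6 and 45.2 CPM with MB-3, in the order A, B, C. DMSO culture B alone lay above all 3 MB-3 libraries, so the groups overlapped. The log2 fold change was 0.15 (SE 0.0828), with an adjusted p of 0.539 (edgeR, Benjamini-Hochberg), and 0.16 (SE 0.0563) with an adjusted p of 0.0929 under the replicate block. Without DMSO culture B the log2 fold change of Myc was 0.26, with an adjusted p of 0.056 in edgeR, and without DMSO culture A it was 0.08, with an adjusted p of 0.732. Under the block it was 0.24 without letter B (adjusted p 0.0329) and 0.08 without letter A (adjusted p 0.688), so the size rested on single libraries.

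Mycl, the third gene of the activating family (chromosome 4, 122995652 to 123002485, plus strand), had the opposite sign. Its levels were 20.6, 19.8 and 25.9 CPM with DMSO and 19.8, 17.6 and 20.7 CPM with MB-3. In each letter the MB-3 library was the lower one, yet the groups overlapped, and DMSO culture C was the highest of all. The log2 fold change was -0.19 (SE 0.101) and did not pass either test, with adjusted p of 0.521 and, under the block, 0.0793 (edgeR, Benjamini-Hochberg). Without DMSO culture C it was -0.063.

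Per length, the 3 Myc genes together came to 64.9, 73.5 and 70.1 RPKM with DMSO and 78.5, 79.9 and 82.0 RPKM with MB-3. Mycn made up 69.6 ± 0.724% of that sum with DMSO and 72.3 ± 1.02% with MB-3 (SD, n = 3 each), and Mycl 7.90 ± 1.23% and 5.99 ± 0.455%. These sums are dominated by Mycn and repeat its difference, so they were not tested.

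Max, the obligate partner (chromosome 12, 76937269 to 76962201, minus strand), showed no detectable difference. It was at 71.2, 81.5 and 74.4 CPM with DMSO and 76.2, 78.2 and 78.4 CPM with MB-3. The MB-3 values lay inside the range of the DMSO values. Its log2 fold change of 0.04 (SE 0.0616; adjusted p 0.879, edgeR with Benjamini-Hochberg) was smaller than its standard error. The 3 Myc genes summed to 3.31 ± 0.0769 times the RPKM of Max with DMSO and 3.72 ± 0.0447 times with MB-3 (SD, n = 3 each), and these ratios did not overlap between the treatments.

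**Figure D2:**
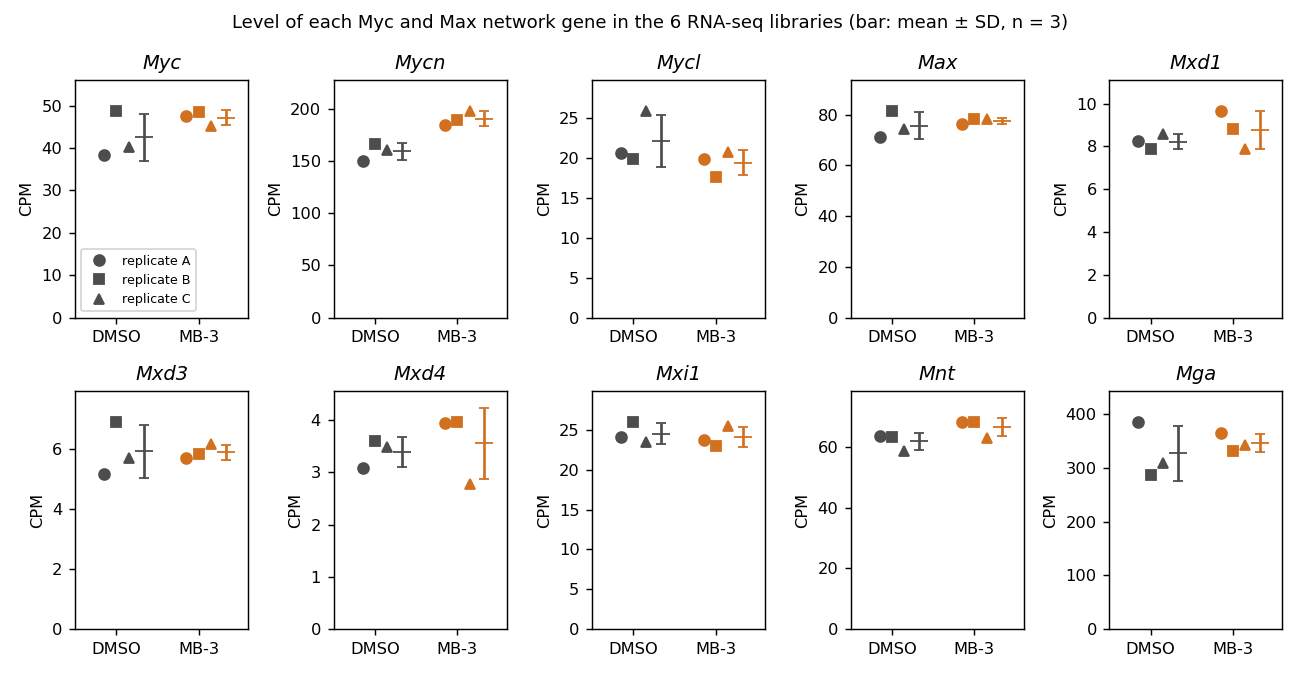
CPM of each network gene in DMSO and MB-3 libraries (points, shaped by replicate letter, with mean ± SD, n = 3). Mycn is the panel in which the MB-3 points all lie above the DMSO points, at 185 to 198 against 150.4 to 167 CPM.

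Of the repressor partners, none passed in either fit. Mnt, the most abundant of them and the one that is present in dividing and resting cells alike (chromosome 11, 74830920 to 74845725, plus strand), was at 63.9, 63.4 and 58.8 CPM with DMSO and 68.3, 68.3 and 63.2 CPM with MB-3. MB-3 culture C lay below DMSO cultures A and B, but within each letter MB-3 was higher by 0.10, 0.11 and 0.10 on the log2 scale. The log2 fold change was 0.10 in both fits, with SE of 0.0608 and 0.0483 and adjusted p of 0.57 and 0.229 (edgeR, Benjamini-Hochberg). Without DMSO culture C it was 0.066.

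The Mxd genes are known as repressors that replace Myc on Max when cells stop dividing or differentiate. Mxi1 (chromosome 19, 53310518 to 53375810, plus strand) ranged from 23.6 to 26.0 CPM with DMSO and 23.0 to 25.5 CPM with MB-3. Mxd1 (chromosome 6, 86647042 to 86669161, minus strand) ranged from 7.88 to 8.56 CPM and from 7.86 to 9.67 CPM. Mxd3 (chromosome 13, 55325168 to 55329823, minus strand), which among the Mxd genes is expressed in S phase, ranged from 5.15 to 6.90 CPM and from 5.69 to 6.16 CPM. In each of these genes the groups overlapped.

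Mxd4 (chromosome 5, 34173883 to 34187720, minus strand) was the shallowest member, with 119 to 196 counts per library, and ranged from 3.07 to 3.61 CPM with DMSO and 2.78 to 3.96 CPM with MB-3. The 4 log2 fold changes lay between -0.03 (Mxi1, SE 0.0712) and 0.09 (Mxd1, SE 0.100), with adjusted p from 0.775 to 0.988 (edgeR, Benjamini-Hochberg). That of Mxd1 was 0.018 without MB-3 culture A and 0.17 without MB-3 culture C. The sources used here do not give whether strand was used in counting, and Mxd3, Mxd4 and Mxi1 share 105, 514 and 194 exon bases with a gene on the other strand (Prelid1, Gm42846 and Gm10197), so their counts are uncertain. Summed per length, these 4 genes stood at 7.66 ± 0.538 RPKM with DMSO and 7.68 ± 0.120 RPKM with MB-3 (SD, n = 3 each). The Myc family to Mxd family ratio was 9.08 ± 0.255 and 10.4 ± 0.235, without overlap, the numerator being mostly Mycn.

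Mga (chromosome 2, 119897228 to 119969581, plus strand) had the most counts of all members, 14435 to 18570 per library, and also a wide spread among the DMSO cultures. It stood at 386, 288 and 309 CPM with DMSO and 366, 332 and 343 CPM with MB-3. DMSO culture A was the highest library and DMSO culture B the lowest, and all MB-3 libraries lay between them. The log2 fold change was 0.08 (SE 0.0905, adjusted p 0.779) and 0.09 under the replicate block (SE 0.0470, adjusted p 0.265), both by edgeR with Benjamini-Hochberg adjustment. Without DMSO culture A it was 0.22, and without DMSO culture B it was -0.00135, so its size and sign rested on single libraries. Under the block without letter A it was 0.18 and Mga was called (adjusted p 0.0451, edgeR), as were 4.71% of tested genes.

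Other long transcripts were likewise lowest in DMSO culture B. Among the 1370 tested genes with at least 10000 bases of exon, to which Mga belongs with 15340, the median log2 deviation from the mean over libraries was 0.05 in DMSO culture A, -0.10 in DMSO B and -0.03 in DMSO C, and 0.08, -0.01 and 0.03 in MB-3 cultures A, B and C. The deviations of Mga itself were 0.20, -0.22 and -0.12, then 0.12, -0.01 and 0.03. This check was added after the values of Mga had been seen, and the part of transcript length in the Mga values was not tested.

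**Figure D3:**
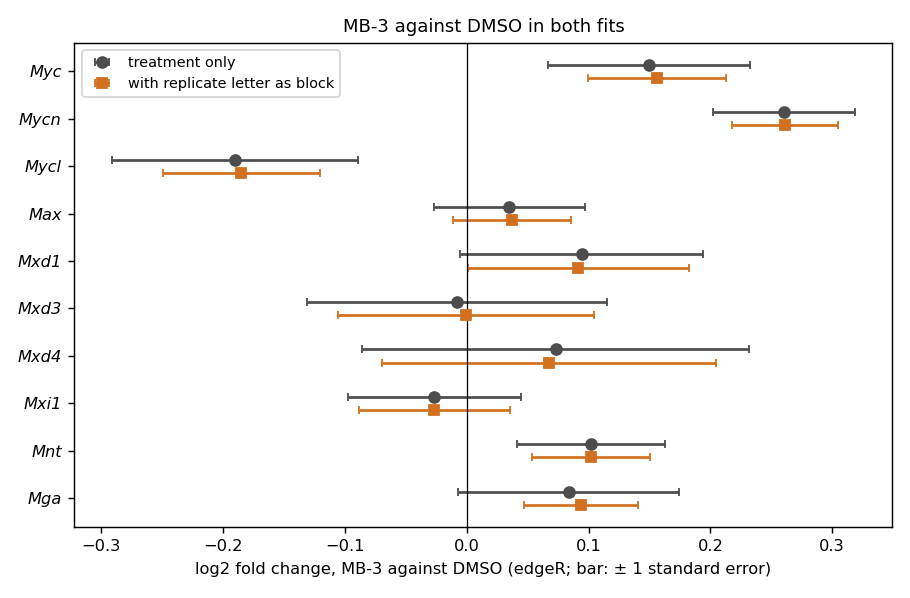
Log2 fold change of each network gene, MB-3 against DMSO, from edgeR with treatment only and with the replicate letter as block (bars ± 1 standard error). Mycn lies farthest from 0, at 0.26 in both fits, and Mycl lies lowest at -0.19.

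Taking the members together, 7 of 10 (70%) had a positive log2 fold change and the median was 0.08, against 49.7% of all tested genes and a median of -0.0011. Groups that did not overlap, higher with MB-3, were seen in 1 member (Mycn) and in 8.22% of tested genes. No member had all MB-3 libraries below all DMSO libraries, as 7.37% of tested genes had. With 3 cultures against 3, an exact two-sided permutation test of a single value cannot go below 0.1.

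The genes around the network were read from lists, and their counts under the block stand against the 3.22% of all tested genes called higher and 3.9% called lower in that fit. Of the other fits named beside the lists, DESeq2 called 1.04% of genes without the block and 3.36% with it. With the block, edgeR called 4.71, 4.51 and 5.15% without letter A, B or C. Without the block, it called 2.55% without DMSO culture B and 0.632% with no filter on low counts. Of the Mlx arm, a parallel branch that senses glucose (Mlx, Mlxip and Mlxipl), none of 3 was called by treatment alone or under the block, and Mlxip, its most abundant gene by CPM, was at 32.9 ± 2.65 and 35.1 ± 1.27 CPM (SD, n = 3 each). Among 22 coactivators and cofactors of Myc, 0 were called by treatment alone (0 also at an unadjusted p under 0.05) and 1 (4.55%) was higher under the block, near the 3.22% of all tested genes. That gene was Bptf, the chromatin reader of the NURF remodelling complex, with a log2 fold change of 0.16 (SE 0.0453, adjusted p 0.0297, edgeR with replicate block), and it was not called with the block in DESeq2 or without letter B. Kat2a itself, the target of MB-3 and part of this list, stood at 126, 139 and 127 CPM with DMSO and 124, 131 and 133 CPM with MB-3. An inhibitor of its activity need not change its transcript, so this is no check of the treatment.

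Among 15 Sin3 and NCoR corepressor genes, 2 (13.3%) rose with MB-3 under the block, against 3.22% of all tested genes, and 0 fell, and 1 was called when letter B was left out of that fit. They were Sin3a, the scaffold that binds Mxd proteins, and Ncor1, a nuclear receptor corepressor. Sin3a was at 236, 218.5 and 210.3 CPM with DMSO and 259, 258 and 249 CPM with MB-3, with every MB-3 library above every DMSO library. Its log2 fold change was 0.21 with an adjusted p of 0.216 by treatment alone and 0.00166 under the block (edgeR, Benjamini-Hochberg). For Ncor1 it was 0.17 (SE 0.0757), with adjusted p of 0.442 and 0.0111 in the same tests, and its groups overlapped.

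Of 17 genes that set the stability of Myc proteins, 2 (11.8%) rose under the block, against 3.22% of all tested genes, and 0 fell. Usp28, a deubiquitinase that protects Myc from the Fbxw7 ubiquitin ligase, was at 245, 253 and 229 CPM with DMSO and 284, 288 and 284 CPM with MB-3. These groups did not overlap. The adjusted p was 0.129 by treatment alone and 0.000338 under the block (edgeR, Benjamini-Hochberg), with a log2 fold change of 0.24 (SE 0.0557). Huwe1, a large ubiquitin ligase that acts on Myc, was the other, with a log2 fold change of 0.17 (SE 0.0495) and an adjusted p of 0.0328 under the block in edgeR and the most CPM of the list, and its groups overlapped. Like Bptf and Ncor1 above, Huwe1 was lowest in DMSO culture B, the library in which long transcripts were lowest. The part of transcript length in these 3 calls was not tested. The list had 1 call with the block in DESeq2, and 2, 1 and 3 calls in edgeR without letter A, B or C. Without the block it had 1 call in DESeq2 and 1 in edgeR when DMSO culture B was left out. Fbxw7 itself had a log2 fold change of 0.08 (SE 0.0616) and was not called.

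The targets were read in a list of 54 genes long known as direct targets of Myc, in nucleotide synthesis, ribosome production, translation and the cell cycle. None was called by treatment alone in edgeR, 7 (13%) were at an unadjusted p under 0.05, near the 10.9% of all tested genes, and DESeq2 called 1. Under the block 5 rose and 2 fell, 13% of the list, where 3.22% of all tested genes were called higher and 3.9% lower. DESeq2 with the block called 4, and edgeR called 4, 3 and 4 with letter A, B or C left out. In these 4 fits 3.36, 4.71, 4.51 and 5.15% of all genes were called. The 5 that rose were Odc1, which makes polyamines, Polr1b, a subunit of RNA polymerase I, Cad and Gart, which make pyrimidines and purines, and Ipo4, a nuclear import receptor. The 2 that fell were Shmt2, which feeds mitochondrial one-carbon metabolism, and Slc7a5, an amino acid transporter.

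The sizes were small. Odc1 was at 92.5, 95.4 and 97.1 CPM with DMSO and 106, 111 and 112 CPM with MB-3, a log2 fold change of 0.20 (SE 0.0539). Shmt2 moved the other way, from 243, 233 and 248 CPM to 202, 199.6 and 223 CPM, a log2 fold change of -0.21 (SE 0.0591). Neither group pair overlapped. The adjusted p under the block was 0.00403 for Odc1 and 0.00118 for Shmt2, and by treatment alone 0.187 and 0.21 (edgeR, Benjamini-Hochberg).

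Ncl, the nucleolar protein nucleolin and the most abundant of the targets by CPM, was at 2697 ± 177 and 2889 ± 131 CPM (SD, n = 3 each), with overlap. Of the 54 targets 42 (77.8%) had a positive log2 fold change and the median was 0.05, against 49.7% and -0.0011 over all tested genes. The E-box CACGTG was found in 14 of the 45 targets with a promoter window (31.1%), against 8.1% of genes. This share describes the sequences of genes picked as known Myc targets and is no measure of the effect of MB-3.

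Mga and Max with PRC1.6 make the other arm. Of 15 subunits and partners of that complex, 0 rose under the block and 1 (6.67%) fell, near the 3.9% of all tested genes: Yaf2, a small subunit that can stand in for Rybp, from 6.80 ± 1.09 to 5.23 ± 0.668 CPM (SD, n = 3 each). Its adjusted p was 0.319 by treatment alone and 0.02 under the block (edgeR, Benjamini-Hochberg), and no gene of the list was called with the block in DESeq2 or without letter B or C. Cbx1, a heterochromatin protein and the most abundant of the list by CPM, had a log2 fold change of 0.12 (SE 0.0603) and was not called.

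Of 18 genes listed as silenced by Max and Mga in ES cells, most of them germline genes, 4 rose under the block (22.2%, against 3.22% of all tested genes) and 0 fell, and 0 were called by treatment alone in edgeR (4 of 18 at an unadjusted p under 0.05, against 10.9% of all tested genes, and 1 in DESeq2). Without the block edgeR called 1 gene of the list with no filter on low counts and 1 without DMSO culture B. DESeq2 with the block called 1, and the blocked edgeR fit called 3, 1 and 1 without letter A, B or C. The 4 that rose in the full blocked fit were Mael, Ddx4, Tdrd1 and Zcwpw1. Mael, which acts in piRNA-guided silencing of transposons, was at 14.04, 15.5 and 12.9 CPM with DMSO and 17.3, 18.8 and 19.5 CPM with MB-3, without overlap. It was higher by 0.39 on the log2 scale (SE 0.0860), with an adjusted p of 0.098 by treatment alone and 0.000465 under the block (edgeR, Benjamini-Hochberg).

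The list as a whole did not move to one side. Its log2 fold changes ran from -0.54 to 0.57, and 9 of 18 were positive. The lowest was that of Tex101, which was near the floor at 0.12 to 0.38 CPM (SE 0.483). In all, 3 of the 18 genes had a mean under 1 CPM. Stra8, Sycp3 and Dazl, genes of meiosis and germ cells, were not called, with log2 fold changes of 0.33, -0.0066 and 0.23. Slc2a3, a glucose transporter that is not a germline gene in function, held most of the counts of the list, with 1096 ± 109 and 1045 ± 57.6 CPM (SD, n = 3 each).

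**Figure D4:**
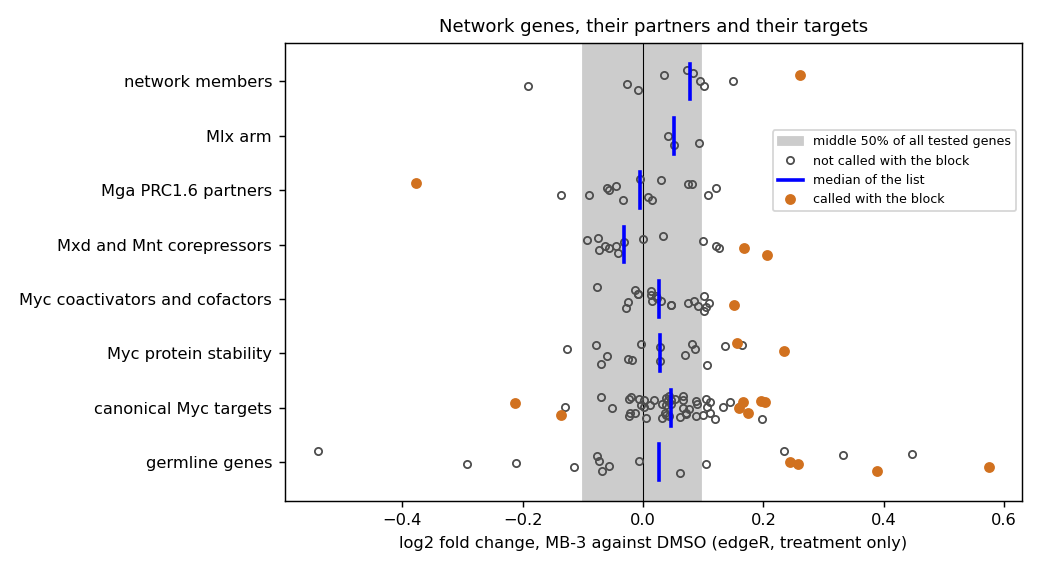
Log2 fold change (edgeR, treatment only) of every tested gene of the network, its partner lists and its target lists, with each list's median as a bar and genes called under the replicate block filled. The grey band, from -0.10 to 0.10, holds the middle 50% of all tested genes, and most listed genes lie in or near it.

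The labelled cell type was checked by its markers. All 10 ES cell identity genes were expressed, Pou5f1 at 650.4 to 717 CPM and Dppa5a, the most abundant, at 1260 to 1577 CPM, and the list summed to 5200 ± 269 CPM with DMSO and 5076 ± 154 CPM with MB-3 (SD, n = 3 each). Utf1 rose and Tfcp2l1 fell under the block (20% of the list, where 3.22% of all tested genes rose and 3.9% fell), with adjusted p of 0.00229 and 0.0142 (edgeR, Benjamini-Hochberg), and neither was called by treatment alone. Of this list 1 gene was called with the block in DESeq2, and 1, 1 and 4 with the block in edgeR without letter A, B or C. Without the block edgeR called 1 gene of it when DMSO culture B was left out.

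Markers of other cell types were read beside the Mycn result, and by treatment alone 1 gene of these lists, Lhx1, passed in edgeR. Without DMSO culture B that test called 2 fibroblast-like, 2 trophoblast, 2 neuroectoderm and 1 extraembryonic endoderm gene, and 2.55% of all tested genes. With no filter on low counts it called 2 fibroblast-like and 1 trophoblast gene, and 0.632% of all genes. The mesendoderm counts are given below. Under the block 3.22% of all tested genes were called higher and 3.9% lower, beside which the counts of these short lists stand. The 8 mesendoderm genes summed to 30.5, 18.4 and 57.5 CPM with DMSO and 11.6, 8.86 and 16.5 CPM with MB-3. Their most abundant gene was T (brachyury), and under the block 6 of 7 tested members fell. The gene called lower by treatment alone was Lhx1 (adjusted p 0.0243, edgeR). Lhx1 was near the floor, at 0.96, 0.64 and 1.55 CPM with DMSO and 0.16, 0.091 and 0.16 CPM with MB-3. The mesendoderm count of 1 by treatment alone was 0 in limma-voom and without DMSO culture A or C or MB-3 culture A or B. The count was also 0 with at least 10 counts in every library, a filter that takes Lhx1 out of the test. It was 6 without DMSO culture B, 3 without MB-3 culture C, 4 with no filter on low counts and 2 in DESeq2. The 8 trophoblast genes summed to 210.0, 142 and 314 CPM with DMSO and 140.5, 118 and 187 CPM with MB-3. Over both treatments together their most abundant gene was Tfap2c, with means of 63.4 CPM with DMSO and 71.2 CPM with MB-3. With DMSO alone the means of the keratin genes Krt8 (73.3 CPM) and Krt18 were higher. Under the block 1 of 7 tested rose, Tfap2c, and 2 fell, Krt8 and Krt18. The 10 fibroblast-like genes summed to 10.3, 8.41 and 11.8 CPM and then 7.19, 7.42 and 7.35 CPM, the most abundant being Thy1, and 2 of 7 tested fell under the block, Col1a1 and Col1a2. DESeq2 without the block called 1 gene of this list, beside the edgeR calls without the block given above.

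The 8 extraembryonic endoderm genes, of which Col4a1 was the most abundant, summed to 27.5, 19.9 and 32.4 CPM with DMSO and 20.8, 17.4 and 23.7 CPM with MB-3, and 1 of 6 tested fell under the block, Col4a1. The 7 neuroectoderm genes summed to 67.7, 63.6 and 86.2 CPM and 62.9, 60.1 and 65.0 CPM. By mean, Nes led them with DMSO (43.8 CPM, Pax6 24.3) and Pax6 with MB-3 (31.6 CPM, Nes 26.7). The sums of both lists overlapped between the treatments, as did those of the trophoblast list. The mesendoderm and fibroblast-like sums did not overlap. Of the 4 neuroectoderm genes tested, Pax6 rose and Nes fell under the block. No gene of these marker lists was at 0 in all 6 libraries, but many were near the floor. The mean was under 1 CPM in 7 of 10 fibroblast-like, 6 of 8 extraembryonic endoderm, 4 of 7 neuroectoderm, 4 of 8 trophoblast and 3 of 8 mesendoderm genes. The part of these markers in the Mycn result was not tested.

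Likeness of pattern over the 6 libraries was described for the leading members. The 3 genes whose log2 CPM was most correlated with Mycn were Kmt5a (Pearson r 0.994), Dact1 (0.991) and Anxa11 (0.987), and 211 tested genes had r above 0.9. For Myc they were Ttc16 (0.995), Pced1b (0.993) and Fam210b (0.991), among 210 genes above 0.9. The libraries include both treatments, so a shared difference between treatments enters each r, and with 6 points many genes reach such values.

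H3K9ac was read next, as peak positions on mm9. The lists hold 11724 peaks with DMSO and 4673 with MB-3, with no score, made from merged duplicates, so the values below have no replicates and no test. In the part of the peak annotation used here, the first 1999 peaks of each list, peaks were assigned to 4 members (Mycn, Myc, Max and Mnt), 8 of them from the MB-3 list. Except at Mnt the places were found through an MB-3 peak, so places that lost all their peaks could not be seen.

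At Mycn the DMSO list had a single peak of 2890 bp on chromosome 12 from 12945761 to 12948650. The MB-3 list had 3 peaks inside it, of 813, 303 and 967 bp, that is 28.1, 10.5 and 33.5% of its width. A further MB-3 peak from 12949099 to 12949862 was 147.8% of the width of its DMSO partner. A DMSO peak of 877 bp, from 12944589 to 12945465, had no MB-3 partner. In all, the place held 3 DMSO peaks over 4284 bp and 4 MB-3 peaks over 2847 bp.

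The peaks assigned to Myc stood at places more than 20000 bp apart on chromosome 15. The first place held 4 DMSO peaks over 2752 bp and 1 MB-3 peak of 479 bp, from 61817505 to 61817983. The second held 2 DMSO peaks over 1656 bp and 1 MB-3 peak of 293 bp, from 61871048 to 61871340. Distances to the gene were not measured, so the second place may lie nearer to another gene. At Max, 3 DMSO peaks over 1241 bp stood against 1 MB-3 peak of 368 bp (chromosome 12, 78062701 to 78063068). At Mnt, 2 DMSO peaks over 1188 bp stood against 1 MB-3 peak of 745 bp (chromosome 11, 74644575 to 74645319), 86.8% of the width of its partner. At each of these places less length was covered with MB-3.

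Over the whole lists, 64.2% of DMSO peaks had no MB-3 partner, and the median MB-3 peak was 57.3% as wide as its DMSO partner, with quartiles of 40.0 and 75.4%. Mycn stood higher in RNA with MB-3 by the blocked test while less length was covered by H3K9ac peaks there. The depth of the ChIP libraries is unknown here, and its part in the narrower peaks was not tested.

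**Figure D5:**
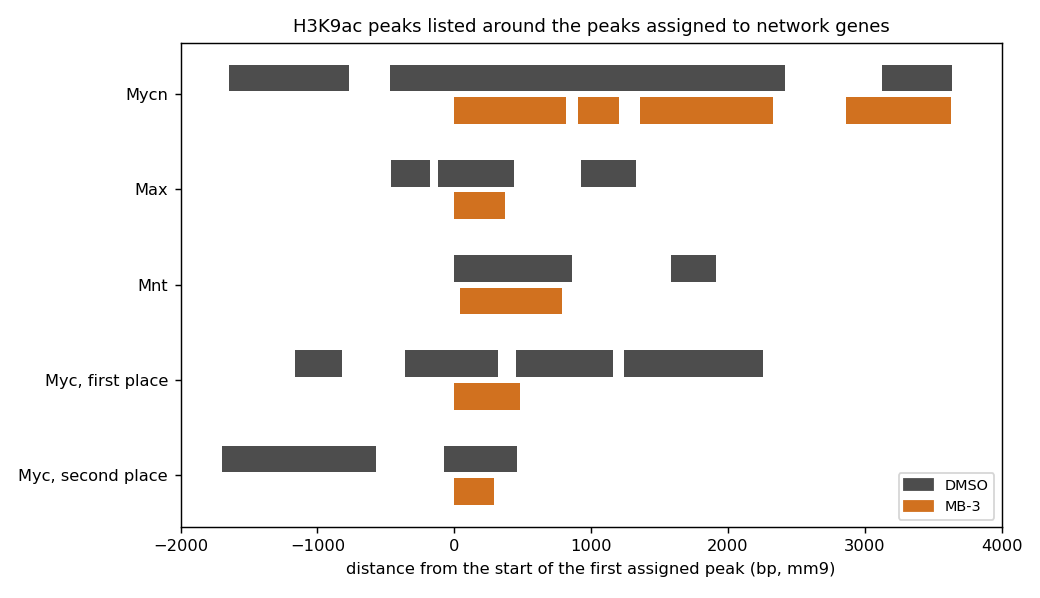
H3K9ac peaks in the DMSO and MB-3 lists at places assigned to Mycn, Max, Mnt and Myc, as distance in bp (mm9) from the start of the first assigned peak. At Mycn the DMSO peak of 2890 bp spans 3 MB-3 peaks, and at each place the MB-3 peaks cover less length in all.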

How the data were processed

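Libraries were assigned to treatment and replicate letter from the labels. For RNA-seq, the authors aligned reads to mm10 with Bowtie and deposited raw counts per Ensembl gene; versions, the annotation release and strand use are not given in the sources used here. The H3K9ac files come from duplicates that were aligned on mm9 (BWA) and merged before peak calling (MACS2), and the authors deposited peak positions with no score. Columns of the authors' own comparisons were not used. The count table had 0 unused columns and 0 rows naming no gene.

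Of 30677 identifiers, 30540 were paired with symbols and GRCm38 positions in GENCODE M21. Counts were filtered with filterByExpr (20027 genes kept), normalized by TMM and tested with edgeR 4.0.16 (R 4.3.3; quasi-likelihood, treatment only), with Benjamini-Hochberg adjustment and a threshold of 0.05. Log2 fold changes had a median standard error of 0.101. The alternatives were other normalizations and filters, DESeq2 1.42.0, limma 3.58.1 (voom), a robust fit, the replicate letter as block, and libraries left out in turn. The fits were tested on simulated data with known changes, all larger than the difference seen for Mycn. Both fits recovered most of these changes. Both, the blocked fit more so, made a larger share of false calls than the threshold sets. Recovery of differences as small as that of Mycn was not tested. CPM uses TMM library sizes, and RPKM divides CPM by the summed exon length of the gene in kilobases. Peaks were matched to the assigned peaks by position and compared by an overlap of at least 1 bp, and start positions count from 1.

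The members and gene lists were chosen with earlier results of these data known. Named genes were all 10 members and, of each list, the genes called by treatment alone, the gene with the smallest p under the block in each direction and the gene with the highest CPM, with the 3 genes most correlated with Myc and with Mycn. Kat2a, Fbxw7, Huwe1, Ncor1, the other list members called under the block, Stra8, Sycp3, Dazl, Tex101 and Pou5f1 were added after their values were seen.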

Additional observations from a re-analysis of the deposited data

How the results depend on the processing

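Without the replicate block, the count of called genes was 41, and 39 under RLE, 25 under upper-quartile normalization, 194 with no filter on low counts, 25 with at least 10 counts in every library, 183 in DESeq2, 18 in limma-voom and 66 in the robust fit. Leaving out 1 library gave 0 to 520: 3, 520 and 5 without DMSO culture A, B or C, and 0, 0 and 62 without MB-3 culture A, B or C (1440 and 1716 genes at an unadjusted edgeR p under 0.05 where none was called). With the replicate block 1425 genes were called, 591 in DESeq2 with the replicate block, and 939, 912 and 1037 with the block and letter A, B or C left out. Members called were 1 in DESeq2, with the replicate block and with the replicate block in DESeq2, 0 to 1 without 1 library (1, Mycn, without DMSO culture B, adjusted p 0.0175), and 2 (Mycn and Mga), 2 (Mycn and Myc) and 1 (Mycn) with the block and letter A, B or C left out. The adjusted p of Mycn ranged from 1.35e-05 to 0.391 over its alternatives. The replicate block turned no member's direction.

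Signs of near-zero differences turned when a library was left out: log2 fold changes ran from -0.0078 to 0.092 for Max, -0.10 to 0.12 for Mxd3, -0.010 to 0.22 for Mxd4, -0.068 to 0.017 for Mxi1 and -0.0013 to 0.22 for Mga. With the block, Mxd4 was at -0.085 without letter A, and Mxd3 at 0.12 and Mxi1 at 0.046 without letter B. Of 8 assigned MB-3 peaks 4 were at least 500 bp wide, and all 8 had a DMSO partner under every overlap rule. The cause of these shifts was not tested.

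Deviations from the treatment mean were correlated at 0.0906, 0.249 and 0.204 between the libraries lettered A, B and C, and negatively between all other pairs. Within a treatment such deviations cancel out by construction, so negative values must accompany positive ones and are no further evidence of pairing. In these deviations, compared across treatments, every library correlated best with its own letter, a hint of pairing from the data and not the design, since A fell under the criterion of 0.1 and no label ties the letters. In their counts, by chi-square per gene, the MB-3 library nearest to DMSO culture A was C (11, against 14.4 for A), to DMSO culture B it was B (9.68) and to DMSO culture C it was C (13.7). Mxd4, with 119 counts in its shallowest library, was the member least resolved at this depth.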
